A study of Mus musculus with 6 samples.

Results

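The matrix metalloproteases (Mmp), the Adamts proteases with their Adamts-like relatives (Adamtsl), and the tissue inhibitors of metalloproteases (Timp) were measured by mRNA sequencing in cold-exposed inguinal white adipose tissue, a subcutaneous depot at the groin, with and without Foxp4 in adipocytes. The family was chosen with earlier results of these data known. Its members were taken by name, as every gene of the deposited table called Mmp or Timp with a digit, or beginning with Adamts. This gave 50 of 21900 distinct gene symbols: 22 Mmp genes, 19 Adamts proteases, 5 Adamts-like genes and 4 Timp genes. The 3 knockout samples carried the genotype Foxp4AdipoQΔ/Δ, in which the forkhead transcription factor gene Foxp4 is deleted by a Cre recombinase under the adiponectin (Adipoq) promoter, active in mature adipocytes. The 3 control samples were labelled Foxp4fl/fl, the floxed allele with no Cre named. All 6 came from C57BL/6 mice aged 2 months, kept on chow at 22 °C and then held at 4 °C for 7 days. Cre and the loss of Foxp4 go together in these labels, so their effects cannot be told apart.

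Mmp and Adamts enzymes are zinc-dependent proteases that cut collagens, proteoglycans and other proteins outside the cell or at its surface. Most are made as inactive precursors, and Timp proteins block them by binding the active site. In fat, where each adipocyte sits in a basket of collagen, they are known for opening that matrix as fat cells enlarge and vessels grow. Adamts-like proteins resemble the Adamts proteases but lack the catalytic domain and bind the matrix.

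The libraries held 13180588 to 15027615 recovered reads in knockouts and 13984162 to 15998332 in controls. Values are FPKM, read counts scaled by exon length and library depth, so that levels can be set side by side between genes. For a gene of 1 kilobase, a single read equalled 0.062 to 0.0753 FPKM. Foxp4 itself stood at 1.92, 1.71 and 1.64 FPKM in knockouts and at 5.76, 4.01 and 4.62 FPKM in controls (log2 fold change -1.06, SE 0.12, adjusted p = 0.0705 in limma). Adipoq, the defining adipocyte transcript, had 823 to 935 FPKM in knockouts and 1150 to 1286 FPKM in controls. Skeletal muscle markers summed to 19.8 to 294 FPKM in knockouts and 15.5 to 65.0 FPKM in controls, and lymphoid markers to no more than 5.22 FPKM in any library. The labels do not say whether a sample is a single mouse, so a p-value here reflects sample-to-sample spread, which may be technical.

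The family spanned a wide range of levels. A mean over the 6 libraries of at least 10 FPKM was reached by 8 members, in falling order Timp2, Mmp2, Timp3, Mmp3, Mmp19, Mmp14, Timp4 and Mmp9. A further 17 lay between 1 and 10 FPKM, 11 between 0.1 and 1 FPKM, 10 above 0 but under 0.1 FPKM, and 4 were listed at 0 in every library. The Timp sum was 75.8 to 107 FPKM in knockouts and 95.8 to 165 FPKM in controls, and the Mmp sum was 117 to 132 FPKM in knockouts and 131 to 224 FPKM in controls. Single genes made up much of both sums: Mmp2 gave 37.0 to 42.7% of the Mmp sum in knockouts and 39.8 to 50.2% in controls, and Timp2 gave 66.6 to 70.6% of the Timp sum in knockouts and 64.9 to 79.1% in controls. The 19 Adamts proteases together reached 39.0 to 46.7 FPKM in knockouts and 36.4 to 64.9 FPKM in controls.

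**Figure D1:**
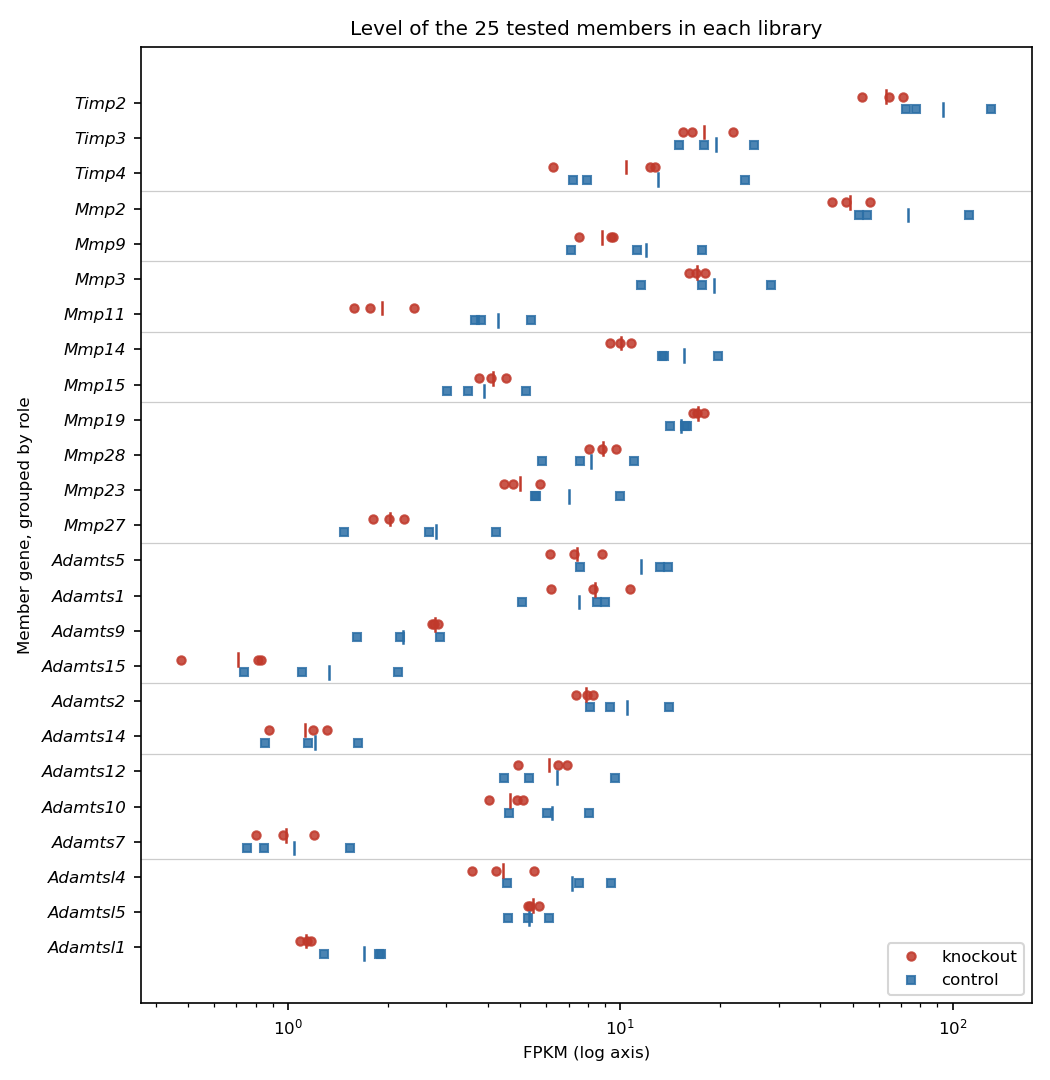
FPKM on a log axis of the 25 members tested, with knockout libraries as red circles above control libraries as blue squares and a short bar at each group mean. Timp2 and Mmp2 lie at the right, up to 131 and 112 FPKM in a control, and the groups separate in Timp2, Mmp11, Mmp14, Mmp19 and Adamtsl1.

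Members also differed in where they lie and in the letters of their promoters. The table holds 9 Mmp genes that lie side by side on chromosome 9 (7272514 to 7699585, mm10): Mmp13, Mmp12, Mmp1b, Mmp3, Mmp10, Mmp8, Mmp27, Mmp20 and Mmp7. Of these, 2 reached a mean of 1 FPKM, Mmp3 and Mmp27. RefSeq promoter windows (build GRCm38.p6, 250 bases before to 50 after the annotated start) were found for 35 members. The other 15, among them Mmp2, Mmp9, Mmp19, Adamts5, Adamts7, Adamts10, Adamts15 and Adamtsl1, had no window and were not searched. Both strands were searched for 4 short sets of letters, none of which contains another. Factors of the AP-1 family, which carry growth and inflammatory signals, bind TGAGTCA. The TATA box, which positions the start of transcription at many inducible genes, was taken as TATAAA. The GC box, common in promoters of widely expressed genes, was taken as GGGCGG. Forkhead factors, the class to which Foxp4 belongs, were searched for by the letters TGTTTAC. The AP-1 letters occurred in 6 of 35 member windows (17.1%), against 5.95% of all 27025 genes with a window, and the 6 were the cluster genes Mmp3, Mmp7, Mmp10, Mmp12, Mmp13 and Mmp1b. The TATA box was in 11 (31.4%, against 15.7% of all genes) and the GC box in 22 (62.9%, against 38.2%). Among the 17 tested members with a window, 13 had a GC box and 1 had the AP-1 letters, whereas among the 18 untested ones 9 had a GC box and 5 had the AP-1 letters. The forkhead letters were in 3 windows (8.57%, against 4.05% of all genes), those of Adamts13, Mmp10 and Mmp13, none of which was tested. Matches are a description of these letters in these windows.

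Mmp3 and Mmp13 are shown because these cluster neighbours share the AP-1 and TATA letters at very different levels (knockout means 17.0 and 0.053 FPKM, control means 19.2 and 0.071 FPKM). Mmp11 and Mmp14 are shown because they had the smallest p-values between genotypes. Each window runs 5′ to 3′ on the gene's strand, with matches to the searched letters, or to their reverse complement, in capitals. The windows are chr9:7445572-7445871, plus strand, for Mmp3; chr9:7272264-7272563, plus strand, for Mmp13; chr10:75932453-75932752, minus strand, for Mmp11; and chr14:54431348-54431647, plus strand, for Mmp14.
Mmp3: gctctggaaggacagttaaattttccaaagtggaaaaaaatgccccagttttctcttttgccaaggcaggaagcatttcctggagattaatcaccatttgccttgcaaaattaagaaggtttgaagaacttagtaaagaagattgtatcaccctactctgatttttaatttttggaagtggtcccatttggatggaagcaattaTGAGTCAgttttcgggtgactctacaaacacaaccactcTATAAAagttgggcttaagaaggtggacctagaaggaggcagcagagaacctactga
Mmp13: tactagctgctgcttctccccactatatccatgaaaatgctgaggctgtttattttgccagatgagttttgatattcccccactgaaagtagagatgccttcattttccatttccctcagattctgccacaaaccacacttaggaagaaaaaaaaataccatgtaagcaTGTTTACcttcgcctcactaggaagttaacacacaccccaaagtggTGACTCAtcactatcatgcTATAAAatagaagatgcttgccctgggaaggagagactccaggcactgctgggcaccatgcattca
Mmp11: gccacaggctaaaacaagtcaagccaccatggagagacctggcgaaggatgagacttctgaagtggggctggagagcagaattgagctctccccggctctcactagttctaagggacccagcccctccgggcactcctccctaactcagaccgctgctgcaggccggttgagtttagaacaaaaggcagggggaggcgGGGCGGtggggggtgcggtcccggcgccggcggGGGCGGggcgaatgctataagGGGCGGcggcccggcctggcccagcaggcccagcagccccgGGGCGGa
Mmp14: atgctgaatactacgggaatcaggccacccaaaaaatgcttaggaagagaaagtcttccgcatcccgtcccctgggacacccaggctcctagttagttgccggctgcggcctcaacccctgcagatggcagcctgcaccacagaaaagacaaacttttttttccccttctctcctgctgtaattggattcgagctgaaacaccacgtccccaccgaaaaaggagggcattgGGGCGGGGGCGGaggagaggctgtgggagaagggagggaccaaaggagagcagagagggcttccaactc
In the Mmp3 window the AP-1 letters began 46 bases and the TATA letters 7 bases before the annotated start. In the Mmp13 window the forkhead, AP-1 and TATA letters began 81, 35 and 16 bases before it. The windows of Mmp11 and Mmp14 held GC boxes and none of the other 3 letter sets. The Mmp11 window lies inside the gene span used for the read counts (75923222 to 75936496), downstream of its 5′ end. The annotated start of that window is thus not the 5′ end of that span.

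The comparison of knockouts with controls asks which of these transcripts differ when adipocytes of cold-exposed fat lack Foxp4. Testing was limited to genes whose mean reached 1 FPKM in knockouts or in controls, which took in 25 of the 50 members, and 2 of them, Adamts7 and Adamts15, entered through the control mean alone. No member passed an adjusted p of 0.05 in limma, as against 1 of all 10787 genes tested (0.00927%). The smallest adjusted p of a member was 0.077, that of Mmp11. At an unadjusted p under 0.05, 4 of the 25 (Mmp11, Mmp14, Adamtsl1 and Adamts5) were lower in knockouts, beside 17.1% of all genes tested, and 0 were higher, beside 6.98%. With median-of-ratios scaling of the libraries 2 members were lower and 2 higher. The lower count was 8 without control replicate 2, and 2 without control replicate 3, knockout replicate 2 or knockout replicate 3. The share of all genes called in these other fits is not given here, and their all-gene median log2 fold change differed too. It was -0.106 without control replicate 2, -0.051 without control replicate 3, -0.081 without knockout replicate 2 and -0.068 without knockout replicate 3. With the scaling it was -0.001. The knockouts lay below all controls in 4 members (Mmp11, Mmp14, Adamtsl1 and Timp2), beside 22.7% of all genes, and above them in Mmp19, beside 8.48%. These shares were near or under those of all genes. The median log2 fold change was -0.26 over the 25 members and -0.08 over all genes tested, with 19 members below 0 and 6 above.

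**Figure D2:**
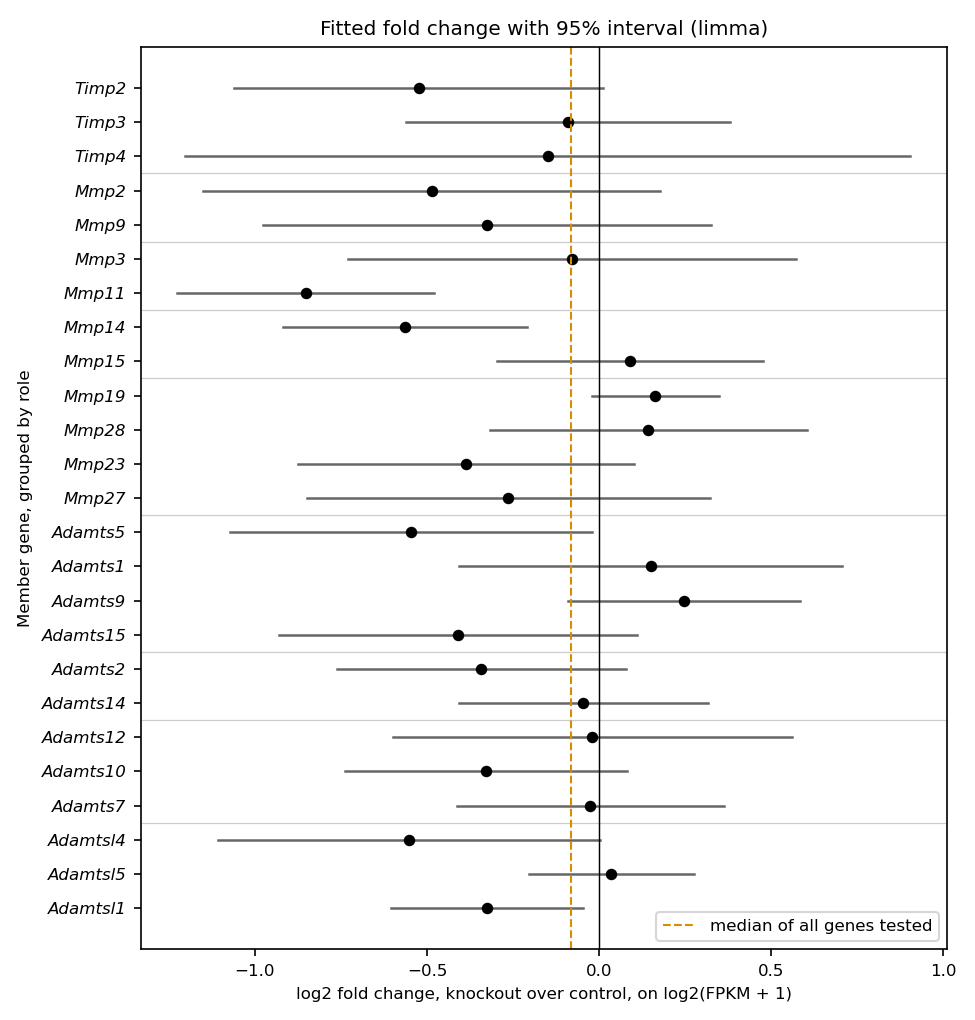
Fitted log2 fold change of each tested member, knockout over control, on the log2(FPKM + 1) scale with its 95% interval from limma; the dashed line is the median of all genes tested (-0.08). The intervals of Mmp11, Mmp14, Adamts5 and Adamtsl1 lie below 0, from -0.85 for Mmp11 to -0.33 for Adamtsl1, and those of the other 21 members include 0.

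Of the inhibitors, Timp2, the Timp that also takes part in activating Mmp2 at the cell surface, had the highest level of all 50 members. Timp2 (chromosome 11, 118301069 to 118355740, minus strand) stood at 70.9, 53.5 and 64.4 FPKM in knockouts and at 77.7, 72.5 and 131 FPKM in controls. Every knockout lay below every control, by little for knockout replicate 1, and control replicate 3 stood far above the rest. The log2 fold change was -0.52 (SE 0.23, unadjusted p = 0.054, adjusted p = 0.21 in limma); with 1 library left out it ranged from -0.68 without control replicate 2 to -0.26 without control replicate 3. Timp3, which stays bound to the matrix and also inhibits Adamts proteases, had 21.9, 15.4 and 16.5 FPKM in knockouts and 17.9, 15.1 and 25.2 FPKM in controls, with overlapping groups. Timp4, an inhibitor found mainly in fat, heart and brain, had 12.7, 6.29 and 12.3 FPKM in knockouts and 23.8, 7.19 and 7.95 FPKM in controls. Control replicate 1 alone was high in Timp4, and the log2 fold change of -0.15 (SE 0.45) was 0.36 without it, 0.15 without knockout replicate 2 and -0.44 without control replicate 2. Timp1, the injury-inducible inhibitor, was not tested, at 0.99, 0.59 and 0.82 FPKM in knockouts and 0.32, 1.08 and 1.40 FPKM in controls, which rest on 4 to 20 reads per library. Timp1 lies inside the synapsin gene Syn1, Timp3 inside Syn3 and Timp4 inside Syn2, each on the opposite strand. Timp3 shares 1733 exon bases, 21.3% of its own, with Syn3, which stood at no more than 0.089 FPKM in any library. Timp4 shares 90 exon bases, 1.53% of its own, with Syn2. Syn2 had 1.15, 0.728 and 1.47 FPKM in knockouts and 2.18, 1.10 and 1.08 FPKM in controls, also highest in control replicate 1. The part of Syn2 reads in the Timp4 values was not tested.

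The gelatinases cut denatured collagen and basement membrane. Mmp2 (gelatinase A; chromosome 8, 92827291 to 92853420, plus strand) stood at 56.2, 47.9 and 43.2 FPKM in knockouts and at 55.2, 52.3 and 112 FPKM in controls. The groups overlapped, and control replicate 3 again stood far above the other 5 libraries. The log2 fold change of -0.49 (SE 0.28, adjusted p = 0.33 in limma) ranged from -0.68 without control replicate 2 to -0.14 without control replicate 3. Mmp9 (gelatinase B), known as a product of neutrophils and macrophages among other cells, had 7.53, 9.51 and 9.41 FPKM in knockouts and 7.10, 11.2 and 17.6 FPKM in controls, and its log2 fold change of -0.33 (SE 0.28) ranged from -0.62 without control replicate 1 to -0.03 without control replicate 3.

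Mmp11 (stromelysin-3), a stromal protease known in mice to restrain fat accumulation, showed the smallest p-value of the family. Mmp11 (chromosome 10, 75923222 to 75936496, minus strand) stood at 1.58, 1.76 and 2.40 FPKM in knockouts and at 5.39, 3.65 and 3.82 FPKM in controls. All 3 knockouts lay below all 3 controls, and control replicate 1 was the highest. The knockout mean of 1.92 ± 0.43 FPKM was 0.447 times the control mean of 4.29 ± 0.96 FPKM (SD, n = 3 each), on 65 to 101 and 148 to 211 reads per library. On the log2 scale the difference was -0.85 (SE 0.16) and its 95% interval -1.23 to -0.48. The unadjusted p of 0.000932 ranked 130 among 10787 genes, and the adjusted p was 0.077 in limma. Over the 12 alternatives its adjusted p ranged from 0.0688 to 0.29, and its log2 fold change from -1.14 to -0.71. Mmp11 shares 155 exon bases, 5.58% of its own, with Chchd10 on the opposite strand, and the strand setting of the counting is not given. Chchd10 had 15.5 to 17.1 FPKM in knockouts and 9.55 to 14.0 FPKM in controls, the other direction from Mmp11. Mmp3 (stromelysin-1), a broad protease that also activates other Mmp precursors, had 18.02, 16.9 and 16.1 FPKM in knockouts and 11.5, 17.6 and 28.5 FPKM in controls. The knockouts fell within the span of the controls, and the log2 fold change of -0.08 (SE 0.28) ranged from -0.38 without control replicate 1 to 0.24 without control replicate 3. Mmp12, the macrophage elastase, was low throughout, at 0.047 to 0.135 FPKM in knockouts and 0.038 to 0.216 FPKM in controls.

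Among the membrane-bound members, Mmp14, a transmembrane collagenase that activates Mmp2 and is needed in mice for white fat to remodel its collagen, was the main one by level. Mmp14 (chromosome 14, 54431612 to 54445364, plus strand) stood at 9.96, 10.8 and 9.33 FPKM in knockouts and at 13.6, 13.3 and 19.7 FPKM in controls. All 3 knockouts lay below all 3 controls. The means were 10.04 ± 0.74 FPKM in knockouts and 15.5 ± 3.63 FPKM in controls (SD, n = 3 each), and the log2 fold change was -0.56 (SE 0.15, unadjusted p = 0.00697, adjusted p = 0.11 in limma). It ranged from -0.66 without control replicate 2 to -0.39 without control replicate 3. Mmp15, a transmembrane relative, had 4.10, 4.53 and 3.77 FPKM in knockouts and 3.47, 3.02 and 5.22 FPKM in controls, with overlapping groups (log2 fold change 0.09, SE 0.16). The membrane-anchored Mmp16, Mmp17, Mmp24 and Mmp25 stayed under 1 FPKM. Of these, Mmp17 had 0.204, 0.148 and 0.070 FPKM in knockouts and 0.268, 0.165 and 0.309 FPKM in controls.

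Mmp19, a widely expressed protease of connective tissue, was the one member higher in every knockout than in any control. Mmp19 stood at 16.6, 17.8 and 17.0 FPKM in knockouts and at 15.9, 15.7 and 14.1 FPKM in controls, a narrow gap. On the log2 scale the gap came to 0.16 (SE 0.08; adjusted p = 0.25, limma). It shares 789 exon bases, 22.3% of its own, with Tmem198b on the opposite strand, which had 1.39 to 1.83 FPKM in knockouts and 1.83 to 2.53 FPKM in controls. Mmp28 (epilysin) had 9.72, 8.80 and 8.03 FPKM in knockouts and 11.0, 5.83 and 7.59 FPKM in controls. Mmp23 had 5.75, 4.47 and 4.74 FPKM in knockouts and 5.58, 5.56 and 9.97 FPKM in controls, and its log2 fold change of -0.39 (SE 0.21, adjusted p = 0.30 in limma) ranged from -0.51 without control replicate 2 to -0.14 without control replicate 3. Mmp27 had 1.81 to 2.24 FPKM in knockouts and 1.48 to 4.24 FPKM in controls. Groups overlapped in all 3 of these.

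Of the 7 proteoglycan-cleaving Adamts genes, 4 were tested, with 2 fold changes below 0 and 2 above. Adamts5, the main aggrecan-cleaving enzyme of mouse cartilage and also a versican protease, stood at 8.84, 6.16 and 7.28 FPKM in knockouts and at 13.9, 7.59 and 13.2 FPKM in controls. Knockout replicate 1 lay above control replicate 2, and the log2 fold change was -0.55 (SE 0.22, unadjusted p = 0.044, adjusted p = 0.20 in limma). Adamts1, which lies beside Adamts5 on chromosome 16 and also cuts versican and aggrecan, had 10.7, 6.21 and 8.29 FPKM in knockouts and 8.49, 5.07 and 8.99 FPKM in controls. These neighbours thus had fitted values of opposite sign, -0.55 and 0.15 (SE 0.24), although that of Adamts1 was below 0 without control replicate 2 or knockout replicate 1. Replicate 2 was the lowest library of its genotype in both genes. Adamts9, a versican protease, had 2.76, 2.82 and 2.72 FPKM in knockouts and 2.17, 1.61 and 2.87 FPKM in controls. Adamts15, another versican protease, had 0.829, 0.814 and 0.478 FPKM in knockouts and 1.10, 0.740 and 2.15 FPKM in controls, with a knockout mean under 1 FPKM. Adamts4, an inflammation-inducible aggrecanase, was not tested, at 0.675 to 1.13 FPKM in knockouts and 0.428 to 1.21 FPKM in controls.

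The enzymes that trim the amino ends of procollagens differed widely in level. Adamts2 stood at 8.28, 7.38 and 7.94 FPKM in knockouts and at 9.34, 8.09 and 14.1 FPKM in controls. Only knockout replicate 1 lay above the lowest control, and the log2 fold change of -0.34 (SE 0.18, adjusted p = 0.29 in limma) ranged from -0.49 without control replicate 2 to -0.13 without control replicate 3. Adamts14 had 1.31, 1.19 and 0.877 FPKM in knockouts and 1.15, 0.856 and 1.62 FPKM in controls, and Adamts3, which also processes a lymphatic growth factor, had 0.085 to 0.166 FPKM in knockouts and 0.126 to 0.222 FPKM in controls. Of the remaining Adamts proteases, Adamts12 and Adamts7, which cut cartilage oligomeric matrix protein, had log2 fold changes of -0.02 (SE 0.25) and -0.03 (SE 0.16). Adamts12 stood at 6.51, 6.91 and 4.94 FPKM in knockouts and at 4.48, 5.30 and 9.63 FPKM in controls. Adamts10, linked in humans to fibrillin microfibrils, had 5.10, 4.88 and 4.03 FPKM in knockouts and 6.03, 4.63 and 8.04 FPKM in controls, and its log2 fold change of -0.33 (SE 0.17) ranged from -0.50 without control replicate 2 to -0.16 without control replicate 3. Adamts6 lay below the filter but was lower in every knockout, at 0.269, 0.183 and 0.186 FPKM against 0.437, 0.491 and 0.660 FPKM in controls, on 19 to 31 and 48 to 83 reads per library. When every gene was fitted, Adamts6 differed by -0.33 on the log2 scale (SE 0.07), at an adjusted p of 0.13 in limma. It was singled out after its values were seen.

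Of the Adamts-like genes, Adamtsl1 was lower in every knockout, at 1.17, 1.09 and 1.14 FPKM against 1.28, 1.88 and 1.90 FPKM in controls. The 3 knockouts were close together, and control replicate 1 stood nearest to them. The log2 fold change was -0.33 (SE 0.12, unadjusted p = 0.028, adjusted p = 0.16 in limma). Adamtsl4, which binds fibrillin microfibrils, had 5.51, 3.59 and 4.22 FPKM in knockouts and 7.51, 4.56 and 9.37 FPKM in controls, with a log2 fold change of -0.55 (SE 0.24, adjusted p = 0.21 in limma) that ranged from -0.80 without control replicate 2 to -0.35 without control replicate 3. Adamtsl5 varied little, at 5.37, 5.71 and 5.28 FPKM in knockouts and 5.26, 4.61 and 6.11 FPKM in controls, and the 95% interval of its log2 fold change ran from -0.20 to 0.27. Adamtsl3 and Adamtsl2 stayed under 1 FPKM.

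The members that did not pass the filter never exceeded 1.40 FPKM in a library. The collagenases were among them: Mmp8, stored in neutrophils, was at 0, 0 and 0.082 FPKM in knockouts and 0.615, 0.198 and 0 FPKM in controls, at most 21 reads in a library. Mmp13, the chief collagenase of mouse cartilage and bone, had 0.025, 0.085 and 0.049 FPKM in knockouts and 0.027, 0 and 0.186 FPKM in controls, on 15 reads in all. Adamts16 had 0.110 to 0.139 FPKM in knockouts and 0.114 to 0.372 FPKM in controls, and Adamts20, a versican protease of developing skin, had 0.067 to 0.180 FPKM in knockouts and 0.110 to 0.167 FPKM in controls. Mmp10 (stromelysin-2), Adamts8, Adamts17, Adamts18, Adamts19 and Adamts13, the liver-made enzyme that trims von Willebrand factor in blood, stayed at or under 0.152 FPKM in every library. Mmp7 (matrilysin, a product of epithelia), Mmp20 (enamelysin, of developing teeth), Mmp21 and Mmp1b were listed at 0 throughout; 3 reads in a library, taken as the detection floor, would have been 0.0566 to 0.212 FPKM for these genes, which covers counting error only. At this depth no difference between genotypes was detectable in them.

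A single library stood high across much of the family. Control replicate 3 had the highest value of the 6 libraries in 19 of the 25 tested members (76.0%), and in 34.5% of all genes tested. The 19 include Adamts15 and Adamts7, which passed the filter only through the control mean and fell below it without this library. In the median-of-ratios scaling the size factor of control replicate 3 was 1.09, the largest, against 0.945 to 1.02 in the other libraries. The counts and sums given here are of FPKM without that scaling, and the part of scale in them was not tested. Markers of progenitors and fibroblasts, the cells that make most of the matrix in fat, summed to 977, 898 and 791 FPKM in knockouts and to 876, 993 and 1729 FPKM in controls, so that the same library stood apart there. Endothelial markers summed to 145, 181 and 158 FPKM in knockouts and 137, 136 and 254 FPKM in controls, and mural markers to 84.8, 82.4 and 74.3 FPKM in knockouts and 83.9, 59.6 and 136 FPKM in controls. Markers of macrophages, a known source of Mmp12 and Mmp9, summed to 388, 418 and 502 FPKM in knockouts and 610, 683 and 817 FPKM in controls, without overlap and again highest in control replicate 3. Neutrophil and mast cell markers summed to 47.4 to 51.8 FPKM in knockouts and 59.0 to 86.0 FPKM in controls, also without overlap. No marker of these 5 lists was at 0 throughout. At an unadjusted p under 0.05, 6 of 14 progenitor and fibroblast markers, 12 of 12 macrophage markers, 5 of 9 neutrophil and mast cell markers, 2 of 10 endothelial markers and 0 of 7 tested mural markers were lower in knockouts, and 0 of any were higher. Of all genes tested, 17.1% were lower and 6.98% higher, and the endothelial share of 20.0% was near the first. Adipocyte markers summed to 10600, 9751 and 10720 FPKM in knockouts and 13750, 13560 and 12460 FPKM in controls, without overlap. There control replicate 3 was the lowest control, and 3 of 10 markers were lower and 0 higher at the same threshold. The part of these cell types in the values of the Mmp, Adamts and Timp genes was not tested. In whole tissue fewer cells of a type and less RNA per cell cannot be told apart. Without control replicate 3, where 23 members were tested, the member median was -0.03 and the median of all genes tested was -0.05. By unadjusted p, 2 members were lower and 2 higher in that fit. The shares of all genes called in that fit are not given here, so these counts are not read as a change of the family.

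**Figure D3:**
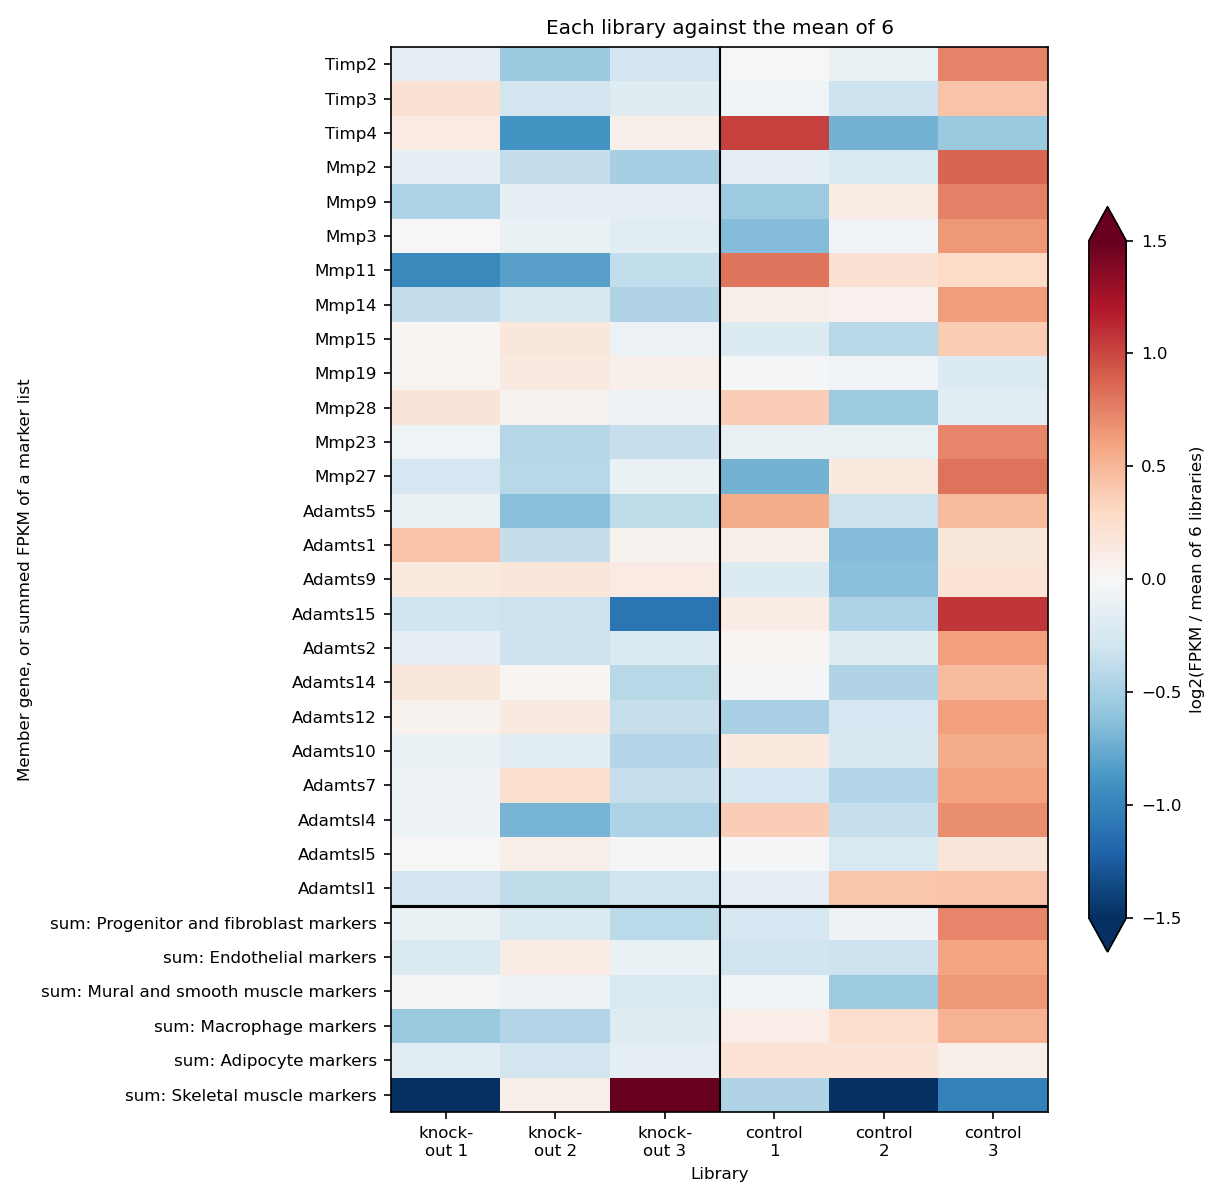
log2 ratio of each library to the mean of the 6, for the 25 tested members above the black line and the summed FPKM of 6 marker lists below it, with knockouts left of controls; the colours end at 1.5 in either direction. Control replicate 3 is the highest column in 19 members and in the summed progenitor and fibroblast, endothelial, mural and macrophage markers, whereas Mmp11 is low in all 3 knockouts and highest in control replicate 1.

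**Figure D4:**
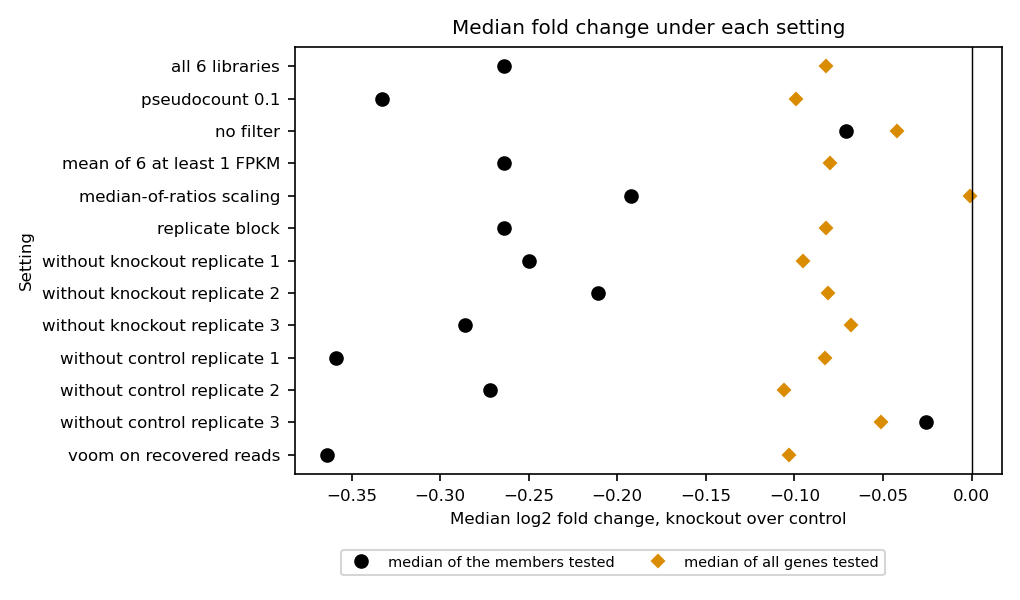
Median log2 fold change, knockout over control, of the tested members (black circles) and of all genes tested (orange diamonds), with all 6 libraries and under each alternative. The member median is -0.26 with all libraries, lies between -0.36 and -0.07 under the other settings, and is -0.03 without control replicate 3.

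Genes that act with the family were described from 4 lists, in which no gene passed an adjusted p of 0.05 in limma. Their counts stand beside the 17.1% lower and 6.98% higher of all genes tested, and their medians beside -0.08. Of 14 tested genes that activate, restrain or clear metalloproteases, 5 were lower in knockouts by unadjusted p and 0 were higher, with a median log2 fold change of -0.29. The proprotein convertase Pcsk6 had 16.2 ± 1.15 FPKM in knockouts and 21.1 ± 0.92 FPKM in controls, its relative Pcsk5 had 0.89 ± 0.14 FPKM in knockouts and 1.59 ± 0.11 FPKM in controls, and Lrp1, an endocytic receptor that clears proteases and their inhibitors, had 24.4 ± 3.01 FPKM in knockouts and 34.5 ± 3.14 FPKM in controls (SD, n = 3 each). The knockouts lay below all controls in these 3 of the 14 genes and in no other, beside 22.7% of all genes tested. Pcsk5, counted both as lower and as without overlap, passed the filter through the control mean alone. Of 9 tested Adam and astacin proteases, 2 were lower and 1 higher, with a median of -0.14. Adam12, a membrane-anchored relative, stood at 11.7 ± 2.86 FPKM in knockouts and 6.41 ± 1.04 FPKM in controls, and Adam33 at 5.18 ± 0.80 FPKM in knockouts and 8.19 ± 1.58 FPKM in controls (SD, n = 3 each). Adam10, a sheddase of many cell types, had 10.4 ± 1.04 FPKM in knockouts and 14.0 ± 3.51 FPKM in controls (SD, n = 3 each).

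Among 10 cathepsins and other matrix proteases, 5 were lower at the same threshold and 0 were higher, and the median log2 fold change was -0.39. Cathepsin S (Ctss), a lysosomal protease of macrophages and other antigen-presenting cells, had 21.6 ± 2.79 FPKM in knockouts and 36.6 ± 1.37 FPKM in controls, and the secreted serine protease Htra1 had 33.5 ± 1.38 FPKM in knockouts and 47.7 ± 5.96 FPKM in controls (SD, n = 3 each). The cell-surface peptidase Dpp4 stood at 7.05, 7.82 and 9.13 FPKM in knockouts and at 10.8, 14.1 and 15.2 FPKM in controls. Of 15 tested proteoglycan, microfibril and thrombospondin genes, 5 were lower and 0 higher, with a median of -0.25. Thbs2, a matrix protein that binds Mmp2 for its uptake by cells, had 6.04 ± 2.14 FPKM in knockouts and 12.9 ± 2.18 FPKM in controls, and biglycan (Bgn) had 18.5 ± 1.59 FPKM in knockouts and 27.1 ± 2.77 FPKM in controls (SD, n = 3 each). Decorin (Dcn), a small proteoglycan on collagen fibrils, had 124 ± 4.60 FPKM in knockouts and 171 ± 24.3 FPKM in controls (SD, n = 3 each). Some of these genes, Dpp4, Dcn, Lum, Fbn1 and Vwf, also stand in the marker lists.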

How the data were processed

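RNA-seq of inguinal white adipose tissue was deposited by the authors as FPKM per gene, 1 column per sample, a unit recognised from the numbers themselves. The submitters' processing notes name cutadapt, HISAT2, HTSeq and mm10; which versions, annotation and strand setting they used was not given in the sources used here. FPKM times merged exon length (GENCODE M21, same build) and a factor per library fell within 0.05 of a whole number of reads for 97.91 to 98.08% of values up to 50 reads, which gave the reads quoted. Of 21936 rows, 36 repeated a symbol, and the one with the larger mean was kept.

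For genes reaching a mean of 1 FPKM in knockouts or controls, log2(FPKM + 1) of the 6 libraries was fitted on genotype in limma 3.58.1 (R 4.3.3; empirical Bayes with trend), and p-values were adjusted by Benjamini-Hochberg over 10787 genes. On this scale fold changes of low genes are understated. An exact test of these group sizes cannot reach a two-sided p under 0.1. The test was tried on simulated data in which each gene varied independently, unlike a library that stands high in many genes at once. The outcome is not reported here and no result rests on it. Members and lists were chosen with earlier results of these data known. Values per library are given for the Timp genes, the 2 highest members of each role among those that reach 1 FPKM, and the 12 members with the smallest p. The 3 genes with the smallest p of each pathway list are given, mostly as means, and marker lists as sums and counts. Alternatives were another pseudocount, 2 other filters, median-of-ratios scaling, a replicate block, leaving out each library and, added after seeing the data, voom on the recovered reads.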

Additional observations from a re-analysis of the deposited data

How the results depend on the processing

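Over 12 alternatives the count of members past an adjusted p of 0.05 in limma stayed at 0, and the smallest adjusted p of any member was 0.0688. Of 25 tested members, 13 had a value in all 12 and kept their sign in each, Mmp11, Mmp14, Timp2, Mmp2 and Mmp19 among them. Adamts15 and Adamts7 fell below the filter without control replicate 3 and have no value there; Adamts15 kept its sign elsewhere. Under median-of-ratios scaling 2 members were lower and 2 higher by unadjusted p, and 2 were higher without overlap; the fold changes of Adamts12 (0.067), Adamts14 (0.009), Adamts7 (0.027), Mmp3 (0.015) and Timp3 (0.003) turned positive. When 1 library was left out, 2 to 8 members were lower and 0 to 2 higher by unadjusted p. In these fits 4 to 9 lay below all controls and 1 to 4 above, and the median ranged from -0.359 to -0.026, the end without control replicate 3. The highest counts below the controls, 9, were without knockout replicate 1 and without control replicate 2, with 7 without control replicate 1. The count above was 2 without control replicate 1 and 4 without control replicate 3. Groups separate more easily when one of them is smaller. No share of all genes is given beside the counts of these fits, so they are not read as changes of the family. Fold changes that turned in some of these fits ranged from -0.078 to 0.327 for Adamts1, -0.213 to 0.266 for Adamts12, -0.164 to 0.086 for Adamts14, -0.128 to 0.044 for Adamts7 over 5 fits, -0.049 to 0.122 for Adamtsl5, -0.041 to 0.274 for Mmp15, -0.538 to 0.002 for Mmp27, -0.048 to 0.36 for Mmp28, -0.381 to 0.238 for Mmp3, -0.247 to 0.105 for Timp3 and -0.437 to 0.362 for Timp4. The causes were not tested. With the replicate number as a block 5 members were lower, as they were with voom, and 0 were called. Same-numbered samples correlated at 0.065, 0.027 and -0.254 in their deviations, and differently numbered ones at -0.231 to 0.182. With 3 libraries per group these values cannot decide whether the numbers pair the samples. With no filter the median over 46 members was -0.07. Members under 1 FPKM rest on few reads, which limits what could be detected in them.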
